A study of Homo sapiens with 4 samples.

Results

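The genes described here are 3 phosphofructokinase genes (PFKL, PFKM and PFKP) and 3 genes of the PFKFB family (PFKFB2, PFKFB3 and PFKFB4), in the human colon cancer cell line HCT116. The members are all probe sets that the annotation of the array platform lists for exactly 1 of these genes, which gave 12 of the 54675 probe sets on the array. Cells in the hypoxia group were held at 1% oxygen for 72 h, and cells in the normoxia group at 21% oxygen for 72 h; both groups had first been kept for 24 h in medium without serum. Hypoxia and normoxia have 2 arrays each, titled exp A and exp B. The labels do not say whether the letters mark separate cultures or cultures handled together. A p-value here weighs a difference against the spread of 2 arrays a group, combined with that of other probe sets of similar signal. Such a spread may be technical. Precision is limited by the number of arrays.

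Phosphofructokinase carries out the committed step of glycolysis, in which fructose 6-phosphate receives another phosphate from ATP. The active enzyme is a tetramer built from the L (liver), M (muscle) and P (platelet) subunits, which are encoded by PFKL, PFKM and PFKP and can mix. The PFKFB enzymes do not take part in the glycolytic sequence: each is a bifunctional enzyme that makes and removes fructose 2,6-bisphosphate, a small molecule that activates phosphofructokinase. PFKFB3 is known for a kinase activity far above its phosphatase activity, PFKFB2 is the form first described in heart, and PFKFB4 the form first described in testis; PFKFB3 and PFKFB4 are known as genes that hypoxia-inducible factors (HIF) act on in many cultured cells.

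The promoter sequences below were chosen only from windows that hold the short core at which HIF binds DNA, and no PFKM window is among them. They are windows of 300 bases, from 250 bases before to 50 bases after an annotated start site, taken from RefSeq on GRCh38.p14 and written 5′ to 3′ on the strand of the gene. Capitals mark the letters ACGTG or GCGTG, the HIF core, read on either strand, so that CACGT and CACGC are capitals too.
PFKFB3, chr10:6202682-6202981, plus strand: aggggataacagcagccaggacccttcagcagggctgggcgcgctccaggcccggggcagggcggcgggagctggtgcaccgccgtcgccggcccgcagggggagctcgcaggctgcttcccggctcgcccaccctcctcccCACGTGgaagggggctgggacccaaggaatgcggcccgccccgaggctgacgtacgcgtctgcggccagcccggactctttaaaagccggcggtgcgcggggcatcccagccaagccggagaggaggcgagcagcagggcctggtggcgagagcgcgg
PFKFB3, chr10:6144671-6144970, plus strand: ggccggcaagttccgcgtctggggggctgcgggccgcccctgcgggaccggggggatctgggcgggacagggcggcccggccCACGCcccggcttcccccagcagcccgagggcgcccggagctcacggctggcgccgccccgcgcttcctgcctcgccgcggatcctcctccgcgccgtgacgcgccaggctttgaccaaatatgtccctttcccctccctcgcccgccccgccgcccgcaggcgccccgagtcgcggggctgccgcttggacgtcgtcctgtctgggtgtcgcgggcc
PFKFB4, chr3:48556754-48557053, minus strand: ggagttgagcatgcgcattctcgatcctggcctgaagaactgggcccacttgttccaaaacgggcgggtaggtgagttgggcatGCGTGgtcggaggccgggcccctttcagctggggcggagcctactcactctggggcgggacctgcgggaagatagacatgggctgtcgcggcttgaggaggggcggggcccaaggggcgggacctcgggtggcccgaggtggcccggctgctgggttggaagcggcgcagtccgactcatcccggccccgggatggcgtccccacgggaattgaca
PFKP, chr10:3068939-3069238, plus strand: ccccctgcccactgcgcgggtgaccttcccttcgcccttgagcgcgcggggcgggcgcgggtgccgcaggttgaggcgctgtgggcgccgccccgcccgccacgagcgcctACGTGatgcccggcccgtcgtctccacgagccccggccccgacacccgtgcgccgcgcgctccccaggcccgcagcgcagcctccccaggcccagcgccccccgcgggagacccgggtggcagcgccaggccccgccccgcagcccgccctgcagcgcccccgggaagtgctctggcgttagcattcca
PFKL, chr21:44299803-44300102, plus strand: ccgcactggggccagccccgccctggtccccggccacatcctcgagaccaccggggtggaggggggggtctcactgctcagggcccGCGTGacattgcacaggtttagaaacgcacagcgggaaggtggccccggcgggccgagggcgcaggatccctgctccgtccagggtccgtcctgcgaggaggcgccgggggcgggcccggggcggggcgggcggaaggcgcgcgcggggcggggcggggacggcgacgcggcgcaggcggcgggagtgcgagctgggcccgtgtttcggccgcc

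The first PFKFB3 window holds CACGTG, a palindrome in which ACGTG is read on both strands, with first bases at positions -108 and -107 from the start site. The other PFKFB3 window holds GCGTG on the opposite strand at -168, and PFKFB4 holds GCGTG as written at -166. The PFKP window shown holds ACGTG at -139, and the single PFKL window holds GCGTG at -164. RefSeq gave 15 windows for 5 of the 6 genes, of which 8 held at least 1 of the 2 cores (53.3%): 1 of 1 for PFKL, 2 of 7 for PFKM, 2 of 4 for PFKP, 2 of 2 for PFKFB3 and 1 of 1 for PFKFB4. Among all 35116 windows of this length in RefSeq, 48.4% held at least 1, with ACGTG in 21.4% and GCGTG in 36.5%. Several windows of PFKM overlap each other, so the 15 are not independent. A match is a run of letters and not a binding site.

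The values are MAS5 signals, a linear brightness that the authors deposited for each probe set, and every array had the same mean signal of 500.1 once the lowest and highest 2% were left out. Directions are therefore relative to the other genes on an array. Log2 differences are hypoxia minus normoxia of log2(signal + 23.7), which understates the change of weak probe sets. A probe set was tested if its mean over the 4 arrays reached 97.4, the median of all probe sets, and was called where its p from limma, adjusted by Benjamini-Hochberg over all 27304 tested probe sets, lay under 0.05. Of the Bacillus and tryptophan controls, which have no target in human RNA, the brightest read 305 on hypoxia A and 226 on hypoxia B, against 45.7 on normoxia A and 120.5 on normoxia B. It serves here as a rough background, since detection calls were not used. Of a hypoxia list of 6 genes, 5 (VEGFA, ADM, NDRG1, EGLN3 and ANKRD37) were tested and called higher, and CA9 was not analysed here. The list was chosen with earlier results of these data known, so these calls are no independent check of the labels. ANKRD37 had a log2 difference of 5.02 ± 0.25 (SE, n = 2 arrays a group, limma adjusted p = 1.67e-05). Of 8 colon epithelial markers 5 lay above the background on all 4 arrays (EPCAM, CDH1, KRT8, KRT18 and KRT19), while CDX2, VIL1 and LGALS4 did not. No leukocyte marker of 3, endothelial marker of 3 or skeletal muscle marker of 4 did so, and of 4 fibroblast markers COL1A1 did. The summed fibroblast markers were higher in hypoxia (2060 and 2759) than in normoxia (631 and 1006), a sum made up mostly of COL1A1 (1752 and 2162, against 545 and 595). The summed skeletal muscle markers were 346 and 293 in hypoxia, against 65.3 and 72.4 in normoxia. Of these markers only ACTA1 exceeded the background control of its array, and only on hypoxia B (253). For the endothelial markers the sums were 270 and 303 in hypoxia, against 89.1 and 215 in normoxia. For the leukocyte markers they were 128 and 111 in hypoxia, against 70.1 and 233 in normoxia. The ratio of the 3′ to the 5′ control of beta-actin was 1.66 and 1.77 in hypoxia, against 1.26 and 1.28 in normoxia. The part of these values in the results was not tested. The same ratio for GAPDH was 0.912 and 0.955 in hypoxia, against 0.918 and 0.996 in normoxia. In pooled RNA, a change in every cell and a change in some of the cells cannot be told apart.

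Of the 12 probe sets 9 were tested, and 6 of these were called, 4 higher and 2 lower in hypoxia, so that each of the 6 genes had exactly 1 called probe set. The higher ones were PFKP, PFKFB2, PFKFB3 and PFKFB4, and the lower ones were PFKL and PFKM. Among all tested probe sets 30.8% were called, 13.7% higher and 17.1% lower. Counted with 1 probe set a gene, 38% of 12636 tested genes were called. The median log2 difference was 0.92 over the 9 tested probe sets and 0.05 over all tested probe sets. The hypoxia values lay above both normoxia values in 4 of the 9 and below both in 3, where the shares over all tested probe sets were 35.4% and 33.2%. The plot of signals shows 3 patterns among the 9 tested probe sets. PFKL and PFKM have the normoxia arrays on top, and the leading probe set of each other gene has the hypoxia arrays on top. In the weak probe sets PFKFB2 226733_at and PFKFB4 206246_at the arrays are mixed.

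**Figure D1:**
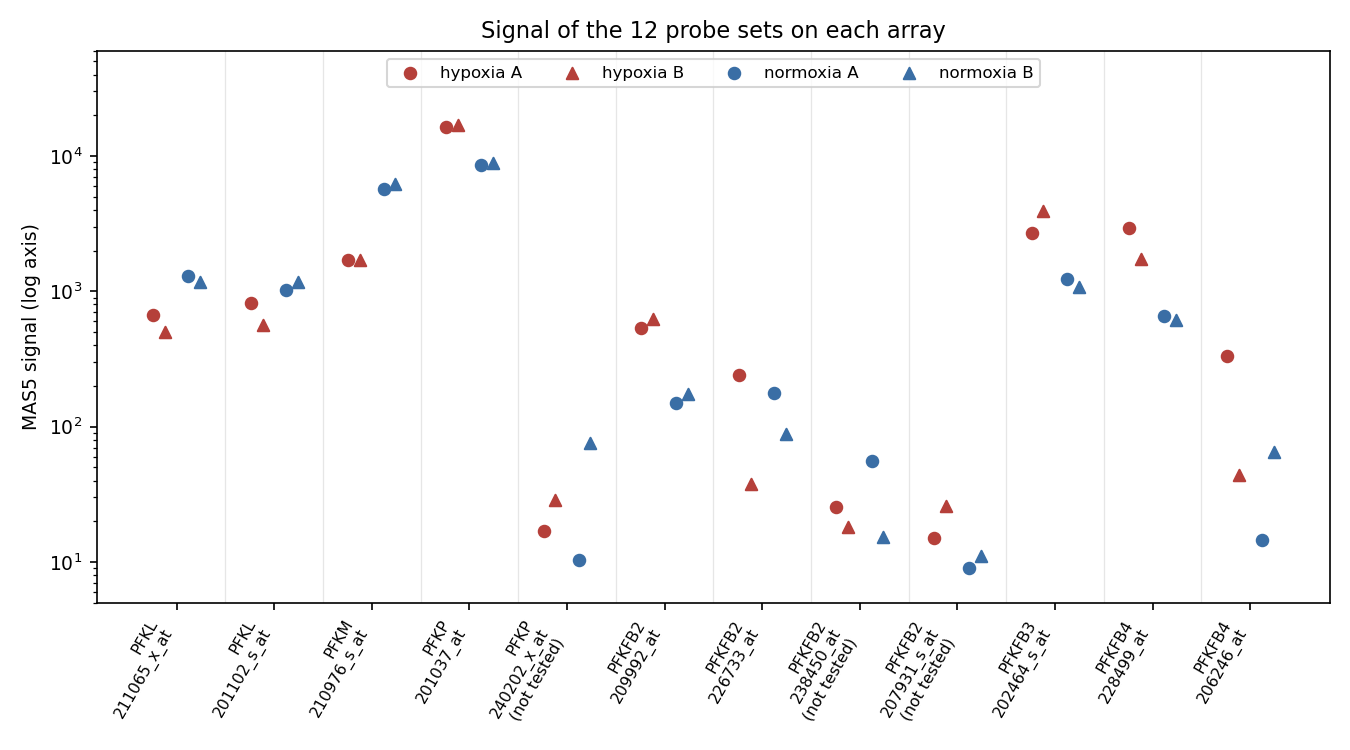
MAS5 signal (log axis) of the 12 probe sets on the 2 hypoxia arrays (red) and the 2 normoxia arrays (blue), with arrays A as circles and arrays B as triangles. PFKM lies at 1710 and 1716 in hypoxia, below 5729 and 6246 in normoxia, while PFKP lies at 16298 and 16887 in hypoxia, above 8553 and 8939 in normoxia. The 3 probe sets marked as not tested read at most 75.5 on every array.

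The phosphofructokinase subunit genes split. PFKM, the muscle-type subunit gene and the member with the largest decrease, had signals of 1710 and 1716 on hypoxia A and B, against 5729 and 6246 on normoxia A and B. The groups were far apart, and the 2 hypoxia arrays were nearly equal. The mean signal was 1713 ± 4.89 in hypoxia and 5988 ± 365 in normoxia (SD, n = 2 each), and the log2 difference was -1.79 ± 0.17 (SE), with a 95% confidence interval of -2.17 to -1.41 and adjusted p = 1.52e-04. Only 6.68% of all tested probe sets had a lower log2 difference. PFKM had a single probe set, 210976_s_at, and it was called lower in all 15 other settings tried.

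PFKL, the liver-type subunit gene, was measured by 2 probe sets, which share their direction and differ in their call. The probe set 211065_x_at had 666 and 497 on hypoxia A and B, against 1295 and 1174 on normoxia A and B. Both hypoxia arrays were below both normoxia arrays, and the log2 difference was -1.07 ± 0.24 (SE, adjusted p = 0.00999). The probe set 201102_s_at had 826 and 565 on hypoxia A and B, against 1032 and 1176 on normoxia A and B. Here hypoxia A came closest to the normoxia arrays, and the log2 difference of -0.67 ± 0.26 (SE) was not called (adjusted p = 0.0770). The ending _x_at is the one Affymetrix gives to probe sets that can also bind other transcripts, so the called PFKL value comes from such a probe set. Its adjusted p became 0.0688 with no intensity trend in the variance, 0.158 when normoxia A was left out and 0.0968 when normoxia B was, so that the call was lost in each, while the log2 difference stayed between -1.27 and -0.87 whichever array was left out. The other probe set was at -0.94 without hypoxia A. It was called lower in limma with same-letter arrays paired as a block (adjusted p = 0.0346). It was also called lower when scaled to the hybridization controls (-2.09, adjusted p = 0.0133), a scaling that lowers every hypoxia value.

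PFKP, the platelet-type subunit gene, went the other way. Its probe set 201037_at had 16298 and 16887 on hypoxia A and B, against 8553 and 8939 on normoxia A and B. Replicates were close and the groups did not overlap. The mean signal was 16592 ± 417 in hypoxia and 8746 ± 273 in normoxia (SD, n = 2 each), a ratio of 1.90, and the log2 difference was 0.92 ± 0.17 (SE, adjusted p = 0.00330). The A arrays gave 0.93 and the B arrays 0.92. A second PFKP probe set, 240202_x_at, was at 17.0 and 28.9 in hypoxia, against 10.4 and 75.5 in normoxia, below the background controls on all 4 arrays, and was not tested. With no intensity trend in the variance the same difference was not called (adjusted p = 0.0658). Scaled to the hybridization controls, which lowers every hypoxia value, PFKP was at -0.53 (adjusted p = 0.420). The median of all tested probe sets then was -1.30, and PFKP lay 0.76 above it, against 0.87 above the median as deposited. Such scaling moves PFKP and the median nearly together, so this likeness is no test of the PFKP difference.

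All 3 PFKFB genes had a leading probe set that was called higher. PFKFB4, which encodes an enzyme that makes and removes fructose 2,6-bisphosphate, had 2947 and 1743 on hypoxia A and B for probe set 228499_at, against 653 and 618 on normoxia A and B. Both hypoxia arrays were above both normoxia arrays, and the hypoxia arrays differed more from each other than the normoxia arrays did. Its mean was 2345 ± 851 in hypoxia and 636 ± 25.4 in normoxia (SD, n = 2 each), a ratio of 3.69, with a log2 difference of 1.80 ± 0.27 (SE, 95% confidence interval 1.20 to 2.40, adjusted p = 0.00123). The A arrays gave 2.13 and the B arrays 1.46.

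The other PFKFB4 probe set, 206246_at, had 333 and 44.1 on hypoxia A and B, against 14.4 and 64.6 on normoxia A and B. Hypoxia A alone exceeded the background control of its own array, and hypoxia B lay between the 2 normoxia arrays. The probe set passed the signal filter through that 1 array, and its log2 difference of 1.42 ± 1.07 (SE) was not called (adjusted p = 0.341). Without hypoxia B it was 2.62 (adjusted p = 0.0304), and without hypoxia A 0.23 (adjusted p = 0.897).

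PFKFB3, the gene of the form known for a kinase activity far above its phosphatase activity, had a single probe set, 202464_s_at. It read 2697 and 3893 on hypoxia A and B, against 1244 and 1082 on normoxia A and B. Here hypoxia B was the higher of the hypoxia arrays, the reverse of PFKFB4, and the groups did not overlap. The mean was 3295 ± 845 in hypoxia and 1163 ± 115 in normoxia (SD, n = 2 each), a ratio of 2.83, and the log2 difference was 1.46 ± 0.22 (SE, 95% confidence interval 0.96 to 1.96, adjusted p = 0.00137).

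PFKFB2, the heart-type gene, had 4 probe sets, and 1 of them was called. The probe set 209992_at read 536 and 624 on hypoxia A and B, against 150.1 and 175 on normoxia A and B. All 4 values were above the background control of their array and the groups did not overlap. The control differed between arrays, and both normoxia values lay below those of hypoxia A (305) and hypoxia B (226). Its mean was 580 ± 62.6 in hypoxia and 162 ± 17.4 in normoxia (SD, n = 2 each), a ratio of 3.57, with a log2 difference of 1.70 ± 0.36 (SE, 95% confidence interval 0.88 to 2.51, adjusted p = 0.00711). The A arrays gave 1.69 and the B arrays 1.71.

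The remaining PFKFB2 probe sets were weak. The probe set 226733_at had 240.04 and 37.8 on hypoxia A and B, against 177 and 87.7 on normoxia A and B, so that the hypoxia arrays lay on either side of the normoxia arrays. Its log2 difference was -0.23 ± 0.84 (SE, adjusted p = 0.857), and the A arrays (0.39) and the B arrays (-0.86) differed in sign. The probe set 238450_at had 25.3 and 18.3 in hypoxia, against 55.6 and 15.2 in normoxia, and 207931_s_at had 15.01 and 26.02 in hypoxia, against 9.01 and 11.05 in normoxia. Both were below the signal filter and were not tested. The PFKFB2 call therefore rests on 1 of 4 probe sets. The confidence intervals of the called PFKFB2, PFKFB3 and PFKFB4 probe sets overlap, and whether their differences are unequal was not tested.

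**Figure D2:**
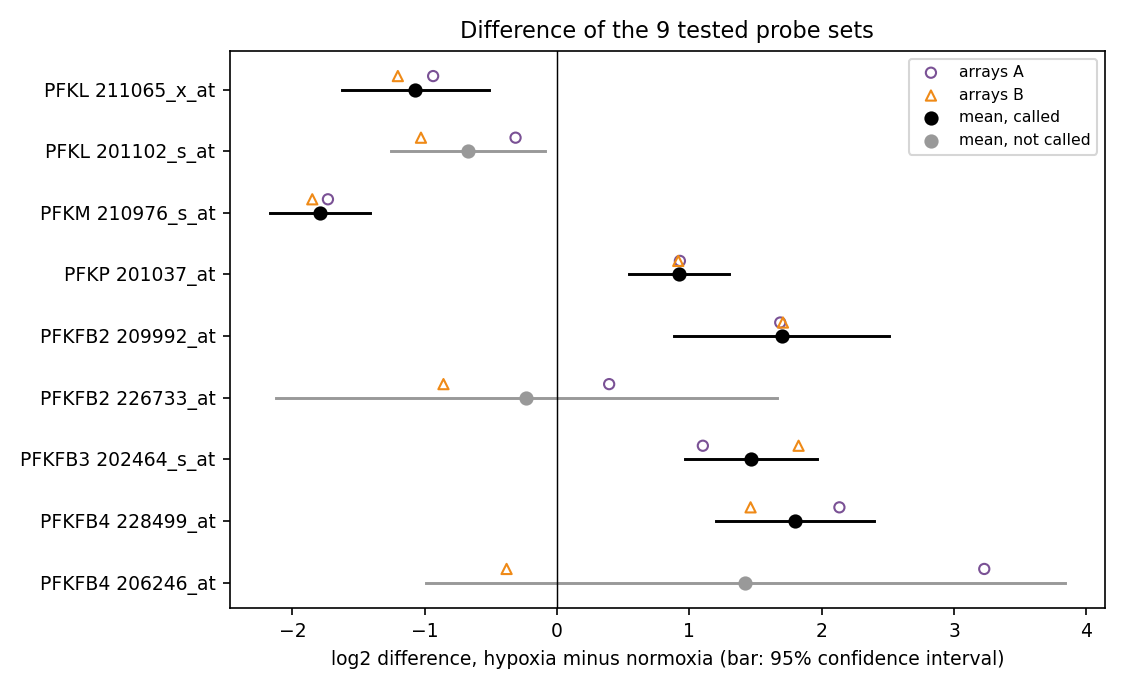
Log2 difference, hypoxia minus normoxia, of the 9 tested probe sets, with the mean (filled points, black where called and grey where not) and its 95% confidence interval from limma, and above it the difference between the 2 A arrays (open circles) and the 2 B arrays (open triangles). PFKM and both PFKL probe sets lie left of 0, PFKP and the leading PFKFB probe sets lie right of 0, and the A and B values fall on opposite sides of 0 for PFKFB2 226733_at and PFKFB4 206246_at. Scaled to the hybridization controls, PFKP moves to -0.53.

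The calls of PFKP, PFKFB2, PFKFB3 and PFKFB4 depended on how the arrays were brought to a common scale. The hybridization controls, bacterial and phage sequences added to every sample before it went onto the array, had a geometric mean of 9869 and 8594 on hypoxia A and B, against 2444 and 4595 on normoxia A and B. Scaling to them shifted the median of all tested probe sets by -1.35, and 0 of the 9 probe sets were then called higher and 3 lower in limma. The 4 that had been called higher then had adjusted p = 0.420 to adjusted p = 0.983. Relative to the median of that scaling, PFKFB4 228499_at lay at 1.67, PFKFB2 209992_at at 1.65, PFKFB3 at 1.32 and PFKM at -1.94. These are close to their values relative to the median as deposited (1.75, 1.65, 1.41 and -1.84). The scaling multiplies a whole array by a common factor, which shifts each probe set and the median by nearly the same amount. The closeness therefore follows from the construction and is no test of these differences. Over all tested probe sets 44.5% of the calls were higher as deposited and 1.07% under that scaling. With quantile normalization and with scaling to the 75th percentile, the 6 called probe sets kept their call and direction.

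**Figure D3:**
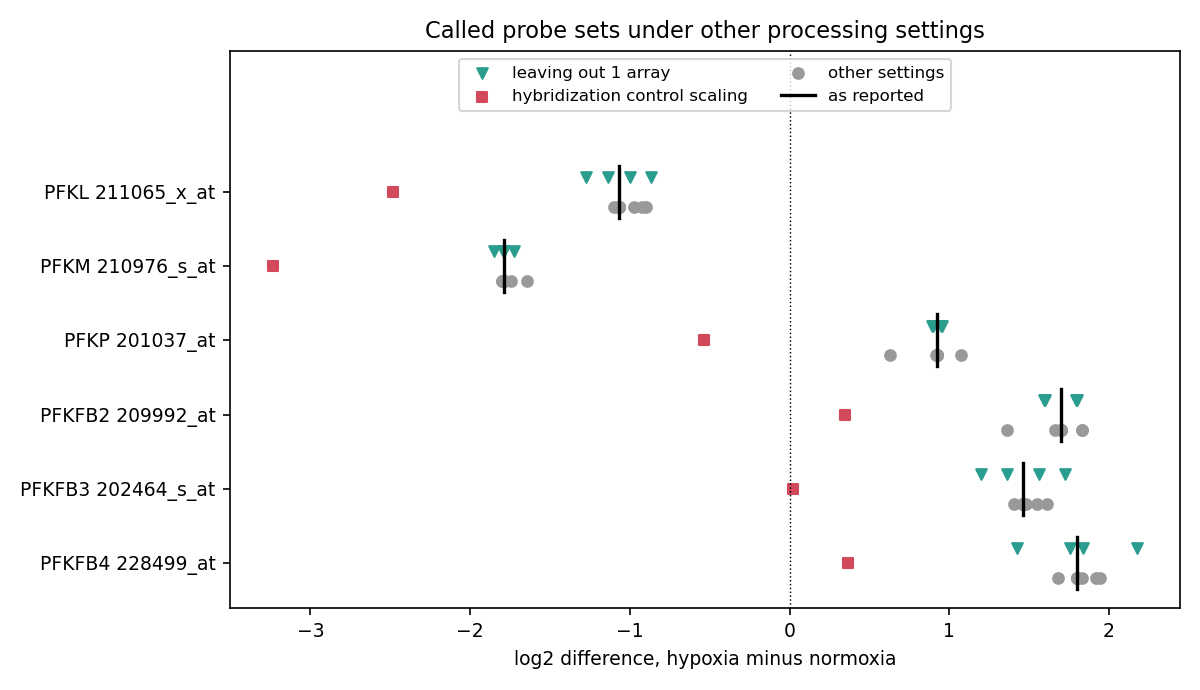
Log2 difference, hypoxia minus normoxia, of the 6 called probe sets as reported (black line), with each of the 4 arrays left out (green triangles), scaled to the hybridization controls (red squares) and under the other settings (grey circles). PFKP lies at -0.53 under the hybridization controls and between 0.63 and 1.07 under the other settings, and PFKFB3 lies at 0.02 under the hybridization controls.

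The rest of the pathway was taken from a list of 15 glycolysis genes from the glucose transporters to lactate dehydrogenase, each represented by its brightest probe set. All 15 were tested, and 14 were called higher and 1 lower, with a median log2 difference of 1.32, against 0.05 for all tested probe sets. Among all tested probe sets 13.7% were called higher and 17.1% lower. With 1 probe set a gene, as in this list, 1927 of 12636 tested genes were called higher and 2876 lower, together 38%. The largest increases were those of the glucose transporter gene SLC2A3 (4.39 ± 0.61 SE), the hexokinase gene HK2 (3.12 ± 0.20 SE) and the enolase gene ENO2 (2.89 ± 0.30 SE). SLC2A3 read 4374 and 916 on hypoxia A and B, against 61.5 and 86.5 on normoxia A and B. Its hypoxia arrays were far apart, and normoxia B was below its background control. Hypoxia A exceeded normoxia A by 5.69 on the log2 scale, while hypoxia B exceeded normoxia B by 3.09. Both normoxia values were under the signal filter, so SLC2A3 was tested only through its hypoxia arrays. The size of the SLC2A3 difference is therefore uncertain. The probe sets used for SLC2A3, ALDOA and GAPDH have the ending _x_at. The 1 that fell was the triosephosphate isomerase gene TPI1, with 7994 and 11523 on hypoxia A and B, against 18620 and 17186 on normoxia A and B (log2 difference -0.90 ± 0.21 SE, adjusted p = 0.0109). With no intensity trend in the variance 11 of the 15 were called higher and 0 lower, so the call of TPI1 was lost there. The list is known to respond to hypoxia, and its members were chosen with results of these data known. Under the hybridization controls 2 of the 15 were called higher and 1 lower, and the list median was -0.14, or 1.16 above the median of that scaling. As that scaling shifts the list and all other probe sets nearly alike, the 1.16 is no separate test of the list. In the plot in pathway order, PFKL and PFKM stand between neighbours that were higher in hypoxia: GPI, which makes their substrate, had a log2 difference of 2.09, and the aldolase genes ALDOA and ALDOC, which act on their product, had 1.56 and 2.54.

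**Figure D4:**
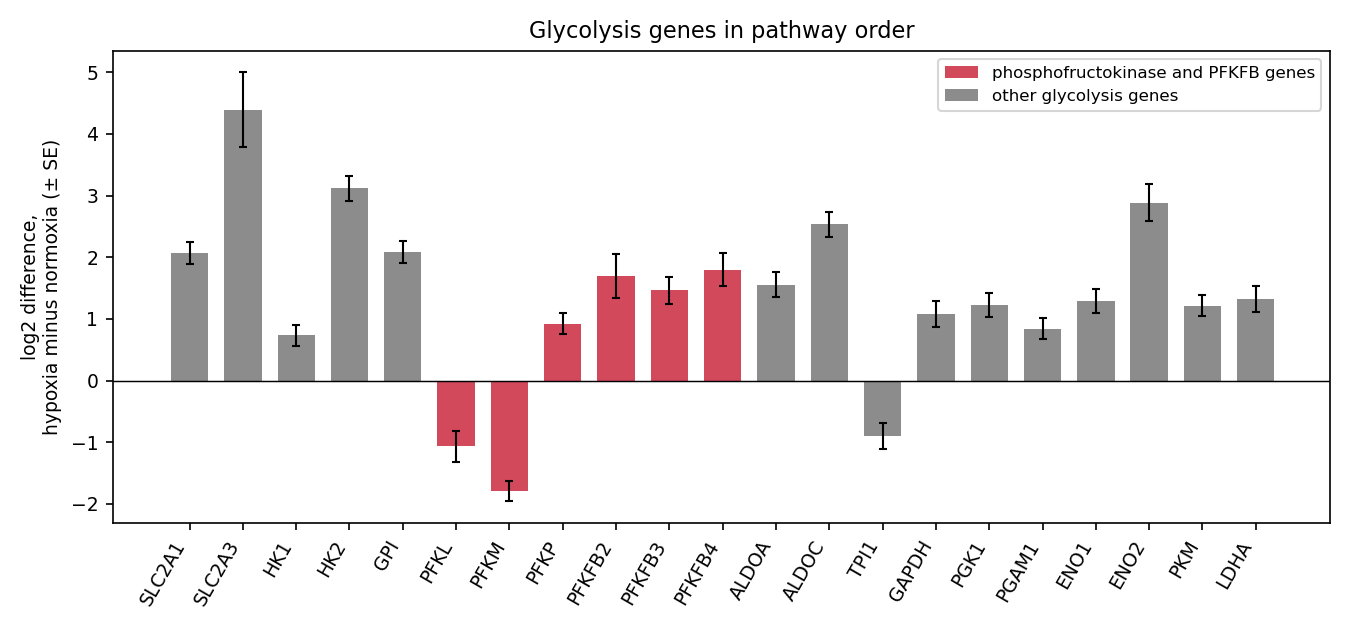
Log2 difference, hypoxia minus normoxia, of the brightest probe set of each glycolysis gene in pathway order, with the standard error from limma; phosphofructokinase and PFKFB genes are red and the other genes grey. PFKL (-1.07), PFKM (-1.79) and TPI1 (-0.90) lie below 0 and the other 18 genes above it; scaled to the hybridization controls, PFKP moves to -0.53 and the median of the 15 other genes to -0.14.

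Of 4 further genes of fructose bisphosphate metabolism, 1 was tested. TIGAR, a phosphatase known to break down fructose 2,6-bisphosphate and a p53 target, had 1014 and 1058 on hypoxia A and B, against 2445 and 2698 on normoxia A and B. The groups did not overlap, and the log2 difference was -1.29 ± 0.19 (SE, adjusted p = 0.00114). The fructose bisphosphatase genes FBP1 and FBP2 and the remaining family gene PFKFB1 were below the signal filter, with signals of at most 137 on any array.

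Among 8 genes whose proteins are known to phosphorylate PFKFB2 or PFKFB3 or to mark PFKFB3 for breakdown, 1 was called higher, 1 lower and 6 were not called. With 1 probe set a gene, 38% of 12636 tested genes were called, so calls were no more frequent among these 8. FZR1, an activator of the ubiquitin ligase that removes PFKFB3, had 711 and 598 in hypoxia, against 243 and 239 in normoxia (log2 difference 1.35 ± 0.31 SE, adjusted p = 0.0109). Its other tested probe sets were not called and had log2 differences of 0.03, -0.26 and -0.42. AKT2, a kinase known to act on PFKFB2, had 418 and 229 in hypoxia, against 708 and 665 in normoxia (-1.09 ± 0.34 SE, adjusted p = 0.0400). Its 5 other tested probe sets had log2 differences from -0.16 to 2.06 and were not called, so AKT2 has no settled direction. In the branches that use the same sugar phosphates, 4 genes were tested. Transaldolase, TALDO1, fell (-1.53 ± 0.17 SE, adjusted p = 3.23e-04), transketolase, TKT, rose (0.69 ± 0.17 SE, adjusted p = 0.0153), and PGD was not called. The brightest probe set of GFPT1 was not called either (0.44 ± 0.22 SE), but its 3 other tested probe sets were, at 1.25 and 0.75 higher and at -0.81 lower, so GFPT1 has no settled direction.

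The genes whose pattern over the 4 arrays was most like that of each member were found by the root mean square difference of log2 values, each centred on its own mean, among 12630 genes. For PFKM these were CSE1L, a nuclear export factor, at 0.036 with a log2 difference of -1.78, and MTCH2, a mitochondrial outer membrane protein, at 0.036 with -1.76. For PFKL they were the iron-sulfur cluster gene ISCA1 at 0.021 and DOCK1, an activator of the GTPase RAC, at 0.021. For PFKP they were PTTG1IP at 0.010 and WSB1 at 0.016. The nearest to PFKFB4 was BTG1, a gene that slows proliferation, at 0.018, with 26932 and 16445 in hypoxia, against 6177 and 5981 in normoxia; the next, SDR16C5, was at 0.059. PFKFB3 had the nuclear pore gene NDC1 at 0.034 and ULBP1, a ligand of a natural killer cell receptor, at 0.048. PFKFB2 had the receptor gene EPHA2 and CABP4, both at 0.038. ULBP1, which was not called, and CABP4 were weak, below the background controls on hypoxia A and normoxia B. With 4 arrays such likeness describes these arrays only.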

How the data were processed

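RNA of HCT116 cells was measured on 4 Affymetrix arrays, 2 from hypoxia and 2 from normoxia, and per the labels' protocols 6 µg of total RNA went into each biotin-labelled cRNA. The deposited intensity values are linear, with 1 value for each probe set and array. MAS5 is the tool that the submitters' processing notes name, with no version. Samples were grouped by the oxygen treatment in the labels. The platform annotation pairs 41091 of the 54675 probe sets with 1 gene, 1801 with several and 11721 with none, beside 62 controls; symbols were updated through RefSeq for 41037 of the 41091. All 27304 probe sets that were not controls and had a mean of at least 97.4 were fitted on log2(signal + 23.7) with a two-sided limma test (version 3.58.1 under R 4.3.3, variance prior following the signal), with Benjamini-Hochberg adjustment over all of them. The pseudocount of 23.7 is the 25th percentile over the 4 arrays. The fit was run on simulated data with variances drawn from its own fitted prior, so the run cannot test that prior. The simulated data also held far fewer changed probe sets than were called here. A gene of a list is represented by its probe set of highest mean signal. Any pair of arrays had at most 1 value in common, so all 4 were kept as separate samples. Every member probe set is named; of each list the largest increase and decrease among called genes are named (up to 3 each for glycolysis), and for each member the 2 genes of most similar pattern; other genes were named after their values were seen. The members and lists were chosen with earlier results of these data known. The sample titles carry exp A and exp B in both groups, but no label says that a letter marks a shared culture or day, and deviations of same-letter arrays had a correlation of 0.064, so arrays were not paired. Alternatives were a replicate block, other pseudocounts, scalings, filters and variance models, 1 probe set a gene, and leaving out each array. Plots were made in matplotlib 3.10.9 under Python 3.11.15.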

Additional observations from a re-analysis of the deposited data

How the results depend on the processing

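Over 15 alternative settings, the 9 tested probe sets gave 129 values, of which 115 kept their direction and their side of the threshold. Scaling to the hybridization controls left 0 members called higher, and 2 of the other glycolysis genes; PFKP turned to -0.53, and the scaling by its construction lowers every hypoxia value. Without an intensity trend in the variance, 1 member and 0 other glycolysis genes were called lower, and 3 members and 11 other glycolysis genes higher, since among members PFKL 211065_x_at (adjusted p = 0.0688) and PFKP (adjusted p = 0.0658) lost their calls; the cause was not tested. Leaving out 1 array gave 4 to 5 members called higher and 1 to 3 lower, and 13 to 14 other glycolysis genes called higher and 1 lower; the lone array is then assumed to vary like the other group. The weak PFKFB2 226733_at changed sign without hypoxia B (0.82) and without normoxia A (0.19), and leaving out 1 array gave it values from -1.28 to 0.82. With the letters as a replicate block, 4 members were called higher and 3 lower, since PFKL 201102_s_at passed (adjusted p = 0.0346), and no other member's call changed. Over all tested probe sets 8406 were called, against 3824 with no trend, 4322 without normoxia A and 4481 without normoxia B, and 11785 without hypoxia A, 11108 without hypoxia B, 10260 under the hybridization controls and 10115 with the block. The filter at the 75th percentile left 6 member probe sets and removed both tested PFKFB2 probe sets. Signals near the background controls limit PFKFB2 and the second PFKFB4 probe set.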
